A study of Mus musculus with 2 samples.

Results

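The Hand2 mesenchyme of the distal mandible was taken from single-cell RNA-seq of mouse cranial neural crest cells (CNCCs) at embryonic day E11.5, as 656 cells of 11212 that passed the cell filters. Its cells were selected on their counts of unique molecular identifiers (UMIs), each of which marks 1 captured transcript. A cell was mesenchymal with 3 or more UMIs of Prrx1, Prrx2 and Twist1 together and at most 1 UMI of Sox2, Sox10 and Elavl3 together. It was a member with 2 or more UMIs of Hand2 and none of Hoxa2 or Hoxb2, the Hox genes of the second pharyngeal arch. This gave 428 of 3509 mesenchyme cells in the control library (12.2%, exact 95% interval 11.1 to 13.3%) and 228 of 2558 in the mutant library (8.91%, 7.84 to 10.1%). Hand2 chose the cells, so these shares and the level of Hand2 describe the selection and are not results.

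Both groups carried the Wnt1CRE transgene and 2 copies of the r26 mTmG reporter, in which CRE switches on membrane GFP. The control embryos had 1 floxed and 1 wild-type copy of Tfap2a and of Tfap2b (Tfap2a wt/flox; Tfap2b wt/flox), so they were double heterozygotes rather than wild type. The mutant embryos were floxed on both copies of both genes (Tfap2a flox/flox; Tfap2b flox/flox). GFP-positive cells were sorted from dissociated heads, and cells of 2 sibling embryos were pooled into 1 library per group. Wnt1CRE is active in the dorsal neural tube and pre-migratory neural crest, so the deletion reaches crest-derived neurons and glia as well as mesenchyme.

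HAND2 is a basic helix-loop-helix transcription factor of the ventral, or distal, part of the pharyngeal arches. In the mandibular arch, endothelin-1 from the epithelium acts through the endothelin A receptor (EDNRA) on neural crest mesenchyme, which then expresses DLX5 and DLX6 and, farther distally, HAND2 and its relative HAND1. BMP signals at the distal tip and FGF signals at the oral epithelium set up further domains, such as BARX1 and LHX8 on the oral and proximal side. HAND1 marks the most distal, medial cap. TFAP2A and TFAP2B are transcription factors of neural crest and facial ectoderm, and the comparison asks how this distal population differs when both genes are lost from neural crest.

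With 1 library per group, no test and no p-value can be given. The genotype could not be told apart from the library, nor from the sex of the embryos: in the members, Xist had a level of 1306 CPM, the gene's share of all UMIs scaled to 1000000, in the control and no UMI in the mutant, whereas the Y-linked Ddx3y had none in the control and 56.2 CPM in the mutant. Levels are CPM of UMIs summed over the members, and differences are log2 ratios of mutant over control. All intervals are exact 95% intervals that cover counting error only, not the spread between embryos. In one pool, fewer cells that express a gene and fewer transcripts per cell give the same sum. The members held 6914381 UMIs in the control (median 15295 per cell) and 4254180 in the mutant (median 17207), so 3 UMIs, the limit that a count of 0 allows, correspond to 0.434 and 0.705 CPM. No member barcode was shared by the libraries. Scrublet called 3 control members and no mutant member as doublets, out of 1.62% and 2.94% of all kept cells. The markers of blood, endothelium, macrophage, autonomic neuron, epithelium, skeletal muscle and cardiac muscle had summed levels of at most 10.1 CPM in either library. Those of glia (15.8 and 16.7 CPM), neuron (35.4 and 45.6 CPM) and mural cells (27.6 and 13.4 CPM, mostly Rgs5) were higher, and their part in the results was not tested. Cdh5, Cdh1, Krt5, Krt14, Myod1, Ptprc, Csf1r and Tnnt2 had no UMI.

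The cells were checked against the distal label. Hand1 was at 72.0 CPM in control members against 1.97 CPM in the other mesenchyme of the same library, and at 26.8 against 1.09 CPM in the mutant. Hand2os1, a long non-coding RNA on the opposite strand of Hand2, was at 295 against 17.8 CPM and at 299 against 15.5 CPM, but it overlaps Hand2, which chose the cells, and is no independent check. Pitx1, a homeobox gene of the mandibular arch and hindlimb, was 1.71 (control) and 2.45 (mutant) higher on the log2 scale, and Gsc, an endothelin-dependent homeobox gene of the arch, 1.97 and 2.17 higher. The 11 other Hox genes of paralogue groups 1 to 5 summed to 1.45 and 2.12 CPM, and none reached 100 UMIs in the members. The label fits only a part of the members by Hand1, since 339 control and 194 mutant members had no Hand1 UMI, and these carried Barx1, a gene of the proximal, oral arch, at 348 and 259 CPM. The cells are therefore called Hand2 mesenchyme here. Position in the embryo was not measured.

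The threshold fell within a continuous range of Hand2 counts. Members had a median of 3 Hand2 UMIs in both libraries, with a maximum of 16 in the control and 22 in the mutant. Of the members, 127 control cells (29.7%) and 67 mutant cells (29.4%) sat at the limit of 2 UMIs, whereas 183 and 67 mesenchyme cells without Hox UMIs had 1 Hand2 UMI and lay just outside. In the cells just inside, Hand1 was at 42.0 CPM (control) and 13.7 CPM (mutant), and in those just outside at 15.7 and 23.1 CPM. Gsc was at 228 and 148 CPM just inside and at 173 and 130 CPM just outside.

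The genes that set the members apart from the other mesenchyme lay in part around Hand2 itself. The 12 genes that were highest over the other mesenchyme in both libraries were led by Hand1 and included Hand2os1 and a pair of genes downstream of Hand2. 5033428I22Rik (chr8:57332118-57354580, mm10) was at 86.9 and 92.6 CPM in control and mutant members against 5.19 and 4.82 CPM elsewhere in the mesenchyme. Gm34030 (chr8:57331692-57334585) was at 43.1 and 30.6 CPM against 4.34 and 3.43 CPM. Hand2 itself lies at chr8:57320983-57324633 on the plus strand and overlaps Hand2os1 (chr8:57281117-57324233, minus strand). 5033428I22Rik and Gm34030 also overlap on opposite strands, and since the strand setting of the counting is not stated, reads of overlapping genes may be shared between them.

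Most other genes of this profile had levels in the mutant close to those in the control. Syt6, a synaptotagmin, was at 31.4 and 34.6 CPM against 2.03 and 1.48 CPM outside the members. Dlk1, an imprinted gene that encodes a transmembrane relative of Notch ligands, was at 1303 and 1494 CPM against 229 and 258 CPM. Plagl1 (253 and 258 CPM), Zim1 (24.3 and 24.2 CPM) and Magel2 (36.9 and 36.7 CPM), which are imprinted too, were between 2.28 and 2.77 higher than in other mesenchyme on the log2 scale. Nrk, a kinase gene, was 2.24 and 2.34 higher, and Gpr50, an orphan receptor related to melatonin receptors, 2.83 and 2.60 higher. Of the 12 genes, Cited1, a transcriptional coactivator (258 and 338 CPM; log2 ratio 0.39, 0.29 to 0.49), and Dlk1 (log2 ratio 0.20, 0.15 to 0.24) were higher in the mutant by intervals that left out 0. Hand1 and Gm34030 (log2 ratio -0.50, -0.80 to -0.19) were lower by such an interval. The profile describes cells chosen on Hand2, and no test was made of it.

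Tfap2a and Tfap2b were at low levels in these cells in both libraries. Tfap2a had 14 UMIs in 428 control members (2.02 CPM) and 5 in 228 mutant members (1.18 CPM), with a log2 ratio of -0.78 and an interval from -2.61 to 0.77. Tfap2b had 40 and 11 UMIs (5.79 and 2.59 CPM; log2 ratio -1.16, -2.27 to -0.17). Both were lower than in the other mesenchyme of the control, where they stood at 21.4 and 60.6 CPM. Counts per gene from 3′ ends may include transcripts of floxed alleles before and after recombination alike. The deleted exons are not given in the sources used here, so these counts do not check the deletion. Tfap2c, a family member that was not targeted, was at 21.4 CPM in the control and 28.7 CPM in the mutant (log2 ratio 0.42, 0.06 to 0.78). Tfap2d and Tfap2e had no UMI.

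Across the 8550 genes with 100 or more UMIs in the members of both libraries together, gate genes left out, the members were close to each other. The median log2 ratio was -0.01. At 1.5-fold or more, 65 genes were higher in the mutant (0.76%) and 134 were lower (1.57%). For 64 and 133 of them the interval left out 0, which at 100 or more UMIs follows nearly always from passing the fold. In the other mesenchyme, over the same genes, 71 were higher and 24 lower. It held 48178789 UMIs in the control and 35911061 in the mutant, so counting error carries fewer genes past the fold there than in the members. Of the 65 higher genes, 24 were also past 1.5-fold higher in the other mesenchyme and 20 in the cells outside the mesenchyme. Of the 134 lower genes, 11 and 14 were. The other mesenchyme holds 3081 and 2330 cells of many kinds, which were not separated here.

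**Figure D1:**
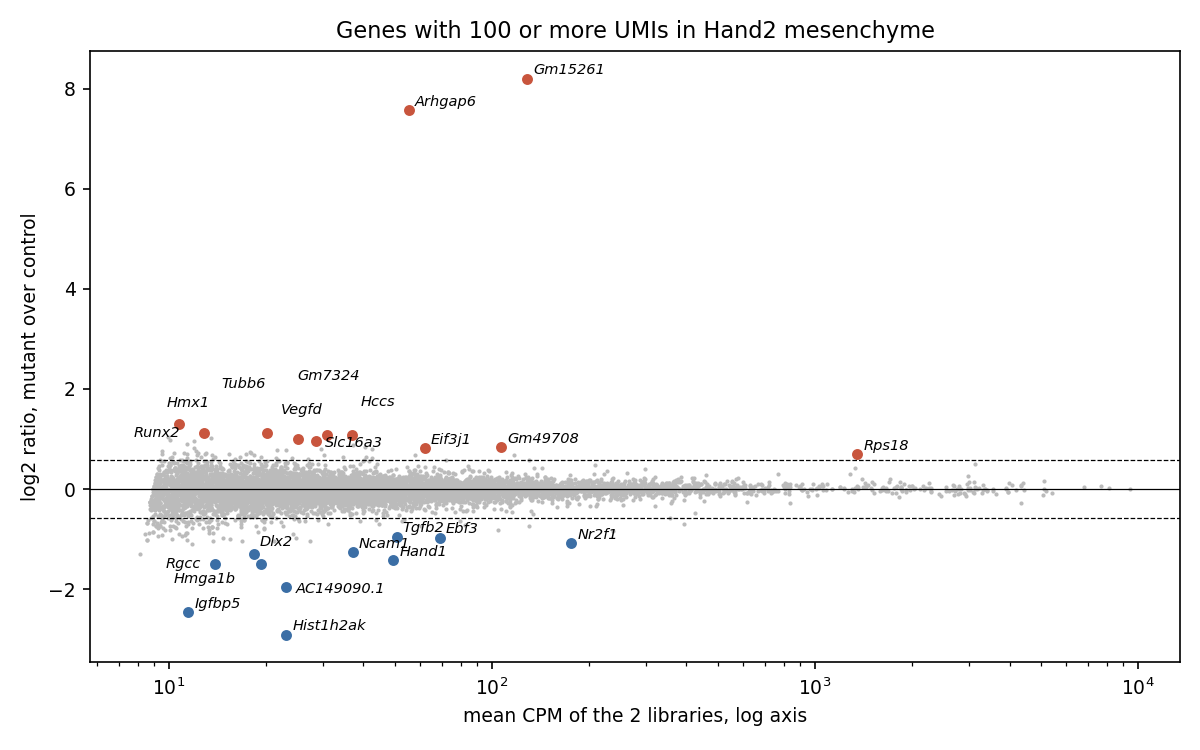
Each point is 1 of the genes with 100 or more UMIs in the Hand2 mesenchyme, with its mean CPM of the 2 libraries (log axis) against its log2 ratio of mutant over control. Dashed lines mark 1.5-fold, and genes chosen by rank are coloured and labelled (red, higher; blue, lower): Gm15261 and Arhgap6 stand at 8.20 and 7.57, Hand1 at -1.43, and most grey points between the lines.

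Hand1 had the largest deficit among the genes of the endothelin, DLX and HAND pathway that could be counted. Its 498 UMIs in the control (72.0 CPM, 65.8 to 78.6) stood against 114 in the mutant (26.8 CPM, 22.1 to 32.2), a 2.69-fold lower level (log2 ratio -1.43, -1.73 to -1.13). Hand1 (chr11:57828705-57832818, minus strand) encodes the relative of HAND2 in the distal cap. Its ratio was -0.86 in the other mesenchyme, and the difference of -0.57 had an interval from -1.20 to 0.08, so the deficit was not clearly larger in the members. Hand1 was past 1.5-fold lower outside the mesenchyme as well. Over this list, 4 of 16 counted genes were past 1.5-fold lower and none higher, where 1.57% of all genes were lower and 0.76% higher. The list's median log2 ratio was -0.30, against -0.01 over all genes. The medians of its genes' lower and upper bounds were -0.61 and 0.03, which are not an interval of the list median. The list median was 0.065 when the cells were thinned before selection, where Dlx5 and Gsc were the only members counted. In the other mesenchyme, the median of the same genes was -0.09.

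The ligands and the receptor part of the pathway gave no such difference. Edn1 and Edn2, which encode endothelins made mainly outside neural crest, had no UMI. Edn3, another endothelin, was at 16.1 CPM in the control and 12.9 CPM in the mutant (log2 ratio -0.31, -0.81 to 0.17). Ednra, the receptor gene, was at 53.2 and 58.5 CPM, and its log2 ratio of 0.14 had an interval from -0.10 to 0.37. Gnaq and Gna11, which encode the G proteins coupled to this receptor, were at 76.1 against 66.8 CPM and at 96.8 against 97.8 CPM. Mef2c, a factor downstream of the receptor, was at 12.4 and 11.05 CPM (log2 ratio -0.17, -0.72 to 0.36). These intervals hold 0, but with 1 library each they do not show that levels were equal.

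The Dlx genes, homeobox genes in linked pairs whose nested domains pattern the arch from proximal to distal, were lower in the mutant members. Dlx2, which together with Dlx1 is expressed along the whole arch, was at 26.03 CPM in the control and 10.6 CPM in the mutant (log2 ratio -1.30, -1.80 to -0.82). Dlx1 was at 20.5 and 10.3 CPM (log2 ratio -0.99, -1.51 to -0.49). Dlx5 was at 121 and 91.4 CPM (log2 ratio -0.41, -0.59 to -0.23), and Dlx6 at 55.2 and 33.8 CPM (log2 ratio -0.71, -0.99 to -0.43). The distal pair Dlx3 and Dlx4 had too few UMIs to be counted in the list. Dlx3 had 64 UMIs in the control and 10 in the mutant (log2 ratio -1.98, -3.10 to -1.01), and Dlx4 had 9 and 3. The deficit of Dlx5, Dlx6 and Dlx3 was not particular to the members. In mesenchyme without Hand2, Hoxa2 or Hoxb2 UMIs, Dlx5 was at 58.2 CPM in the control and 35.9 CPM in the mutant. Dlx6 was at 20.2 and 10.2 CPM in these cells, and Dlx3 at 6.69 and 2.29 CPM. When the cells were thinned to 5000 UMIs before selection, which left 144 and 62 members, the ratio of Dlx5 was 0.16 and that of Hand1 -2.52. Dlx6 overlaps Dlx6os1 and Dlx1 overlaps Dlx1as on the opposite strand, and their counts are uncertain to that extent.

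**Figure D2:**
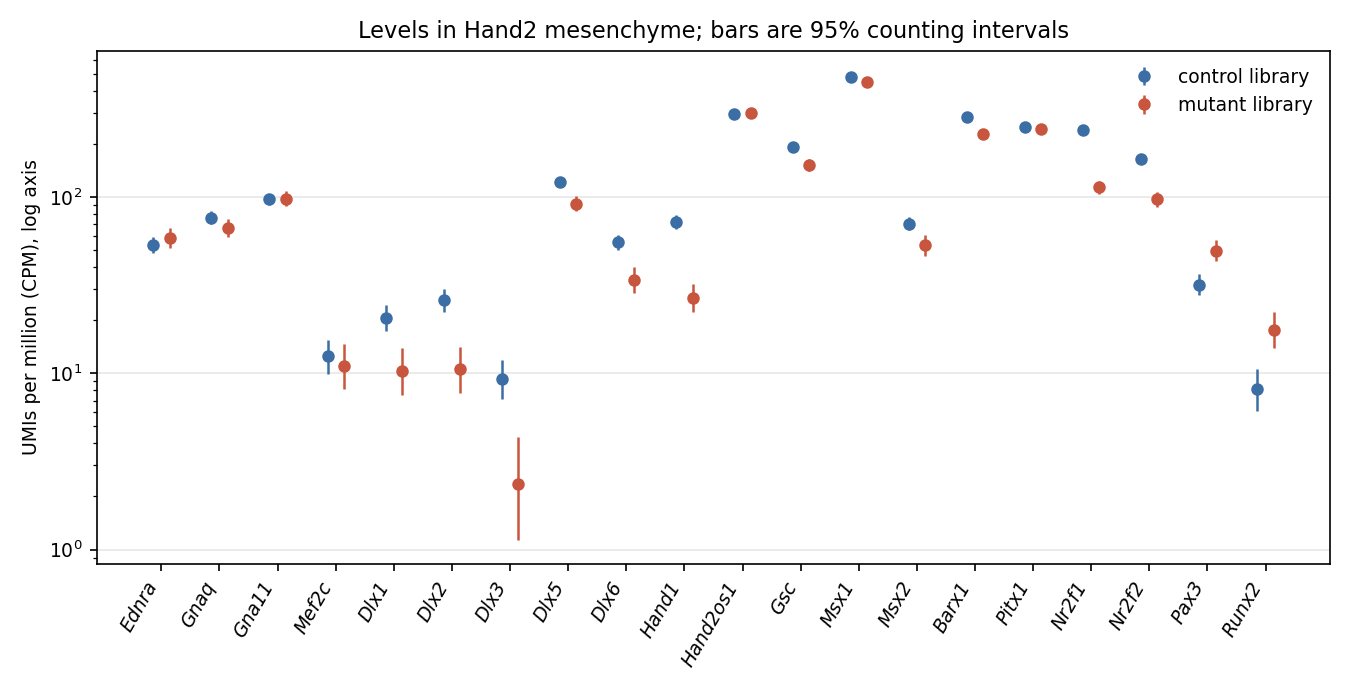
Points give the CPM (log axis) of 20 genes in the Hand2 mesenchyme of the control (blue) and mutant (red) libraries, and bars the exact 95% Poisson intervals. Ednra, Gna11, Hand2os1 and Pitx1 sit at like levels, whereas Dlx2 (26.03 and 10.6 CPM), Hand1 (72.0 and 26.8 CPM) and Nr2f1 (238 and 113 CPM) are lower in the mutant and Runx2 (8.10 and 17.6 CPM) is higher.

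Gsc was lower by about as much as Dlx5, and Hand2os1 was at like levels in both libraries. Gsc was at 191 CPM (181 to 202) in the control and 151 CPM (139 to 163) in the mutant, a log2 ratio of -0.34 (-0.48 to -0.21) that is short of 1.5-fold. In mesenchyme without Hand2, Hoxa2 or Hoxb2 UMIs, Gsc was lower in the mutant too, at 41.3 CPM in the control and 31.7 CPM in the mutant. Hand2os1 was at 295 and 299 CPM (log2 ratio 0.02, -0.08 to 0.12), yet Hand2, which shares its locus, was required in each member and its ratio is not independent of the selection.

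The deficit of Hand1 was found at each Hand2 count within the gate. In the control, Hand1 was at 42.0 CPM in cells with 2 Hand2 UMIs, 54.5 CPM with 3 to 4 and 116 CPM with 5 or more. In the mutant, it was at 13.7, 25.3 and 38.6 CPM in these cells. The log2 ratios were -1.61 (-2.51 to -0.80), -1.11 (-1.63 to -0.61) and -1.58 (-2.03 to -1.16). The cells with 1 Hand2 UMI, outside the gate, had a log2 ratio of 0.56 with an interval from -0.20 to 1.29, and with them included the ratio of Hand1 was -1.11. Nr2f1 was lower at each count, 1 Hand2 UMI included, with log2 ratios between -1.16 and -0.89. Gsc was lower in cells with 1 to 4 Hand2 UMIs and at 142 and 147 CPM in those with 5 or more (log2 ratio 0.06, -0.20 to 0.31). Cells with more Hand2 UMIs were also deeper, with medians of 16442 (control) and 19692 (mutant) UMIs at 5 or more against 13937 and 15347 at 2.

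**Figure D3:**
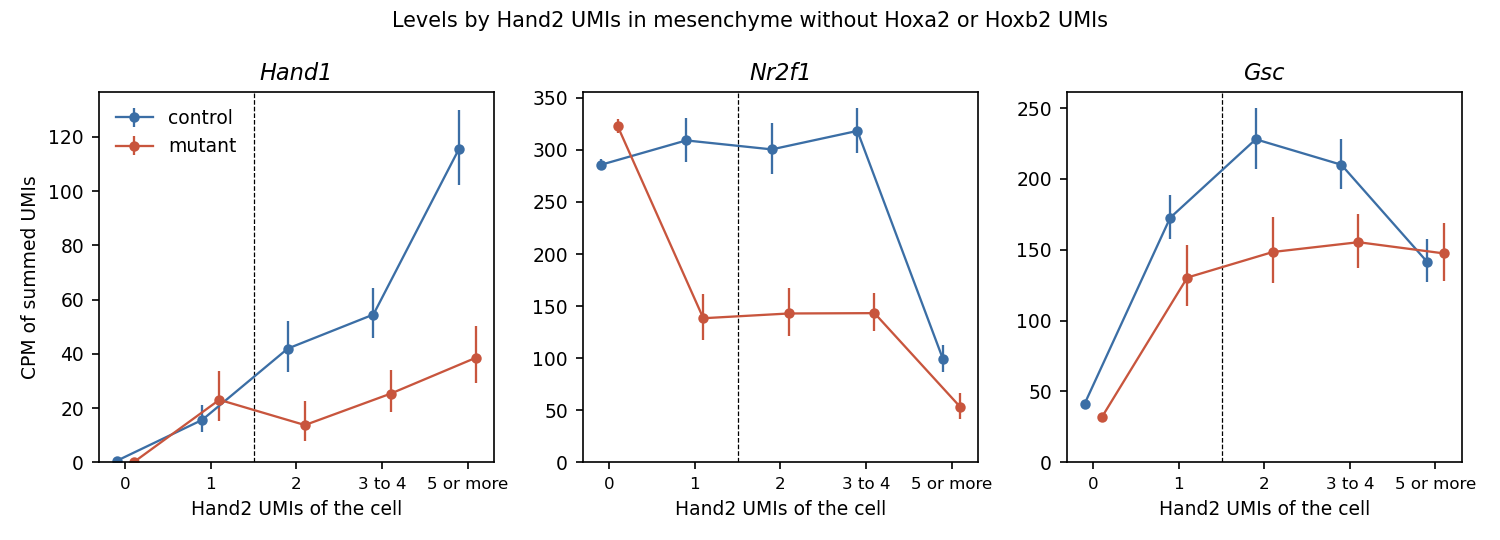
CPM of Hand1, Nr2f1 and Gsc are plotted against the number of Hand2 UMIs per cell, in mesenchyme without Hoxa2 or Hoxb2 UMIs, for the control (blue) and the mutant (red), with exact 95% Poisson intervals. Cells right of the dashed line are members. Hand1 climbs to 116 CPM in the control and 38.6 CPM in the mutant, and Nr2f1 drops to 99.2 and 53.3 CPM in cells with 5 or more Hand2 UMIs.

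Hand1 was found in a part of the members only. At least 1 Hand1 UMI was seen in 89 of 428 control members (20.8%, 17.0 to 25.0%) and in 34 of 228 mutant members (14.9%, 10.6 to 20.2%). With each cell thinned to 5000 UMIs, which left out 1 control member, the shares were 15.9% and 9.65%, and no neural reference cell of either library had a Hand1 UMI. The neural reference cells, with 3 or more UMIs of Sox2, Sox10 and Elavl3 and none of Prrx1, Prrx2 or Twist1, had medians of 10957 and 10492 UMIs. The positive cells also held fewer Hand1 UMIs in the mutant, with a mean of 3.35 against 5.60. In the control, 55 cells had 3 or more Hand1 UMIs, and in the mutant 15. The 10 richest cells held 32.3% of the Hand1 UMIs of the control and 62.3% of those of the mutant. Without the 10 richest cells of each library, the log2 ratio of Hand1 was -2.24. This takes out 10 of 34 positive mutant cells but 10 of 89 positive control cells, which by itself lowers the ratio. The median over all genes fell as well, from -0.01 to -0.085. The value therefore does not show a larger deficit.

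The Hand1-positive members differed from the Hand1-negative ones in a part of the list genes, in the control and in the mutant. Of 170 counted list genes other than Hand1, 22 were higher and 20 lower in the positive cells with intervals that left out 0 in both libraries. This split is made on Hand1 and describes the cells. The share of all genes with such intervals is not given here, so the count has no background and describes the list genes only. Alx1, a homeobox gene best known from the frontonasal prominence, was at 345 CPM in positive and 39.3 CPM in negative control members, and at 392 and 56.1 CPM in the mutant. Tfap2c was at 54.5 and 13.0 CPM in the control and at 91.6 and 18.3 CPM in the mutant. Gata3, a zinc-finger gene of the BMP-dependent distal arch, was at 72.4 and 11.2 CPM (control) and 38.3 and 11.49 CPM (mutant). Bmp4, the BMP ligand of the distal tip, was at 120 and 49.8 CPM and at 128 and 42.1 CPM. Msx1, a BMP target, was at 816 and 395 CPM and at 622 and 422 CPM. Wnt5a, Tbx3, Msx2, Bambi, Id1 and Foxf2 were likewise higher in the positive cells of both libraries.

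Pitx1, Barx1, Dlx1 and Dlx2 were found mainly in the Hand1-negative members. Pitx1 was at 309 CPM in negative and 7.89 CPM in positive control members, and at 281 and 15.0 CPM in the mutant. Barx1, a homeobox gene of the proximal, oral arch, was at 348 and 26.5 CPM (control) and 259 and 33.3 CPM (mutant). Dlx1 and Dlx2 had 3 and 4 UMIs in all positive control cells and none in the positive mutant cells. Dlx5 was at 66.0 CPM in positive and 135 CPM in negative control members. Nr2f1, Nr2f2, Dlx5, Dlx6, Gsc, Lhx6, Lhx8, Sox9 and Col2a1 were lower in the positive cells of both libraries. Alx1 and Hand1 were thus high in one set of members and Pitx1 and Barx1 in the other.

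**Figure D4:**
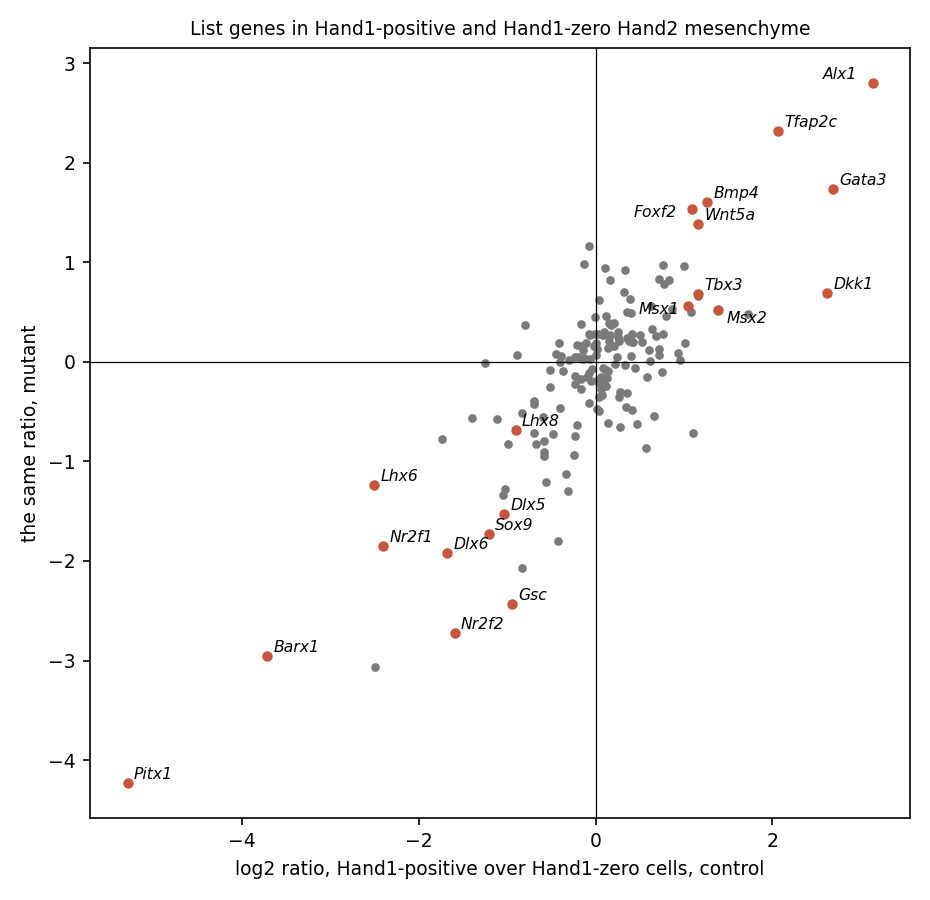
Each point is a counted list gene, with the log2 ratio of Hand1-positive over Hand1-negative members in the control (horizontal) and in the mutant (vertical), and genes with no UMI in 1 group of cells are left out. Alx1 (3.13 and 2.80) and Pitx1 (-5.29 and -4.23) lie at the ends of the spread, and Tfap2c, Gata3 and Bmp4 lie in the upper right.

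The mutant deficit of Dlx, Nr2f1 and Ncam1 was present within the Hand1-negative cells. There, the log2 ratio was -1.06 (-1.59 to -0.57) for Dlx1, -1.37 (-1.88 to -0.89) for Dlx2, -0.76 (-1.06 to -0.48) for Dlx6 and -1.18 (-1.33 to -1.03) for Nr2f1. Ncam1 was lower in both kinds of cell, with ratios of -1.11 (-1.86 to -0.42) in positive and -1.23 (-1.63 to -0.85) in negative cells. Gsc had a ratio of -1.80 (-2.57 to -1.11) in positive cells and -0.31 (-0.46 to -0.17) in negative cells. Tgfb2 was at 166 and 65.0 CPM in positive cells and at 41.8 and 29.6 CPM in negative cells. The positive mutant group holds 34 cells, so its values rest on few UMIs.

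Among the genes lower in the mutant members, several had a ratio farther below 0 than in the pooled rest of the mesenchyme. Nr2f1 (chr13:78188973-78199757), an orphan nuclear receptor gene of the facial mesenchyme, was at 238 CPM (227 to 250) in the control and 113 CPM (103 to 124) in the mutant. Its log2 ratio was -1.07 (-1.22 to -0.93) in the members and 0.18 (0.15 to 0.21) in the other mesenchyme, a difference of -1.25 (-1.40 to -1.10). Ebf3, a transcription factor gene of connective tissue and bone precursors, was at 91.3 and 46.5 CPM in the members (log2 ratio -0.97, -1.21 to -0.74) and at 50.9 and 69.8 CPM in the other mesenchyme, a difference of -1.43 (-1.68 to -1.18). Ncam1, the neural cell adhesion molecule gene, was at 52.2 and 21.9 CPM (log2 ratio -1.26, difference -1.39, -1.75 to -1.04). Tgfb2, a growth factor gene, was at 66.8 and 34.6 CPM (log2 ratio -0.95 against -0.15 in the other mesenchyme, difference -0.80, -1.09 to -0.51). Rgcc, a regulator of the cell cycle, was at 20.5 and 7.29 CPM (log2 ratio -1.49 against -0.09, difference -1.41, -2.06 to -0.80), and it was past 1.5-fold lower outside the mesenchyme too. Igfbp5, which encodes a binding protein of insulin-like growth factors, was at 19.4 and 3.53 CPM, but its 10 richest cells held 74.6% of the control UMIs. Part of the other mesenchyme, the Hand2-negative cells with Dlx5 and Dlx6, was also lower in the mutant for Ebf3 (-0.65) and Tgfb2 (-0.84). Nr2f1, Ebf3, Ncam1 and Tgfb2 each overlap a gene on the opposite strand. Of the 12 lower genes named by rank, 8 were further down in the members than in the other mesenchyme by an interval that left out 0. These genes were picked by their ratios in the members, which favours a difference below 0. The share over all genes is not given here, so the count describes the named genes only.

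The sequence before the start of these genes was examined for the palindromic motif GCCNNNGGC, the consensus bound by TFAP2 proteins. The windows are the 250 bases before and 50 after each gene start in RefSeq (GRCm38.p6, the assembly of mm10), read 5′ to 3′ on the strand of the gene. Over all 32851 windows, 16.6% held the motif. Of the 12 lower genes, 7 had a window and 4 of these held it in at least 1 window (Igfbp5, Rgcc, Nr2f1 and Ebf3). Of the 12 higher genes, 8 had a window and 3 held it (Arhgap6, Hmx1 and Slc16a3). Counted by window, as for the 16.6%, 4 of 8 windows of the lower genes and 4 of 10 of the higher genes held it. These numbers are small, the genes were picked by their ratios, and a match describes letters and not binding. Hand2, Hand2os1, Dlx1, Dlx2, Gsc, Nr2f2, Tgfb2, Runx2, Msx1, Msx2, Foxd1 and Barx1 had windows without it, whereas those of Aldh1a2 and Foxf2 held it. The 250 bases before the start are printed for 3 lower genes and 1 higher gene with the motif, which stands in capitals.

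Nr2f1, chr13:78198874-78199123 (minus strand): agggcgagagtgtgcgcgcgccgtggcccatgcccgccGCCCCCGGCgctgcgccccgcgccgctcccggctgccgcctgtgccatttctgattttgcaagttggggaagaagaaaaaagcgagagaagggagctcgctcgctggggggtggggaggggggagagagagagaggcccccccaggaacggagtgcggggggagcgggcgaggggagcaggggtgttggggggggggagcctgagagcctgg
Ebf3, chr7:137314446-137314695 (minus strand): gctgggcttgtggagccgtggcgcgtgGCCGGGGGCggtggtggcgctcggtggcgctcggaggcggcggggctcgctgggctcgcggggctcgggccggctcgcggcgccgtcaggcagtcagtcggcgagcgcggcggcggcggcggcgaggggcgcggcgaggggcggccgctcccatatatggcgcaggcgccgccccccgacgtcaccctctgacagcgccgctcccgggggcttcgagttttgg
Rgcc, chr14:79301636-79301885 (minus strand): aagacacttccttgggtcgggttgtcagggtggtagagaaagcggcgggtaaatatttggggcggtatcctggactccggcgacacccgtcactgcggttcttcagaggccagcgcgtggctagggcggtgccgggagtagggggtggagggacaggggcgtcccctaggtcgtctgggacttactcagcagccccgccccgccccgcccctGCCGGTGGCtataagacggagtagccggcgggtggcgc
Hmx1, chr5:35388611-35388860 (plus strand): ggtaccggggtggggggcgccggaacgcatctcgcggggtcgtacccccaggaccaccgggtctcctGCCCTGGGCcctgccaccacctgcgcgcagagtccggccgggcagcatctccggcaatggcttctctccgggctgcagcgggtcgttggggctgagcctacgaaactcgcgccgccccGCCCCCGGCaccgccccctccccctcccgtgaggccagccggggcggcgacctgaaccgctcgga

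In Nr2f1 the motif begins 212 bases before the RefSeq start, in Ebf3 223 bases and in Rgcc 38 bases before it, and Hmx1 has 2, at 183 and 65 bases. Another Nr2f1 window, at a different start, held none.

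Of the 12 genes named by rank as higher in the mutant members, 7 were also past 1.5-fold higher in the pooled cells outside the mesenchyme. Gm15261 (0.868 and 256 CPM) and Arhgap6 (0.579 and 110 CPM) had the highest ratios, 8.20 and 7.57, and were at 8.42 and 7.37 in the cells outside the mesenchyme. They overlap on opposite strands of the X chromosome, and Hccs, which overlaps Arhgap6 too, was at 23.7 and 50.1 CPM. Gm7324, Tubb6, Slc16a3 and Eif3j1 were also past 1.5-fold higher outside the mesenchyme. On the lower side, Hist1h2ak (40.6 and 5.41 CPM) and Hmga1b (28.5 and 10.1 CPM) were lower outside the mesenchyme as well, with log2 ratios of -2.65 and -1.11. Histone, Hmga1 and ribosomal protein genes such as Hist1h2ak, Hmga1b and Rps18 belong to families with similar copies, so their counts are uncertain. Sequence copies were not examined here.

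Runx2, Hmx1 and Vegfd, which were also picked by their ratios in the members, were higher in the members beyond the other mesenchyme. Runx2, the master transcription factor of osteoblasts, was at 8.10 CPM (6.12 to 10.5) in the control and 17.6 CPM (13.9 to 22.1) in the mutant, a log2 ratio of 1.12 (0.60 to 1.65) against 0.28 in the other mesenchyme and a difference of 0.84 (0.29 to 1.39). It was seen in 42 control cells (9.81%) and 51 mutant cells (22.4%), although with equal depth per cell the shares were 3.98% and 3.95%, and Runx2 overlaps Supt3 and antisense genes. Sp7, the next osteoblast factor, had 18 UMIs in each library, or 2.60 and 4.23 CPM (log2 ratio 0.70, -0.33 to 1.73). Hmx1, a homeobox gene of the ear and lateral face, was at 6.22 and 15.3 CPM, but 10 cells held 78.5% of its mutant UMIs. Vegfd, a lymphatic growth factor gene, was at 16.8 and 33.4 CPM (log2 ratio 0.99, 0.63 to 1.36), a difference of 0.56 (0.17 to 0.96) from the other mesenchyme.

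The BMP pathway and its distal targets held few genes past the fold. Of 19 counted genes, 1 was past 1.5-fold higher and 1 lower, with a median of -0.14. The medians of the single genes' lower and upper bounds were -0.28 and 0.06. Over all genes 0.76% were past 1.5-fold higher and 1.57% lower, which is the background for the counts of the lists that follow as well. Bmp7 was the higher one (7.09 and 11.99 CPM; log2 ratio 0.76, 0.16 to 1.35) and Gata3 the lower one (23.6 and 15.3 CPM; log2 ratio -0.63, -1.06 to -0.20). Bmp4 was at 63.9 and 54.3 CPM, Msx1 at 480 and 450 CPM and Msx2 at 70.6 and 53.1 CPM. Tbx2, a T-box repressor gene of the distal arch, was higher in the mutant members (84.2 and 110 CPM; log2 ratio 0.39, 0.21 to 0.57) and lower in the other mesenchyme (log2 ratio -0.37), a difference of 0.76 (0.57 to 0.95). Id1 and Id3, direct targets of BMP signalling, were at 227 and 352 CPM in the control, with intervals that held 0. Id2 was lower in the mutant, at 546 and 415 CPM in Hand1-positive members and at 350 and 330 CPM in Hand1-negative ones. Of the 19 genes, 3 had a ratio interval above 0 and 5 below 0, as did 513 and 646 of all 8550 genes.

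Among the oral and aboral arch factors, 1 of 11 counted genes was past 1.5-fold higher and none lower. This was Foxf2, a forkhead gene of the oral, hedgehog-responsive mesenchyme, at 23.1 and 37.1 CPM (log2 ratio 0.68, 0.36 to 1.01), and its ratio was 0.70 in the other mesenchyme. Lhx6 and Lhx8, LIM-homeobox genes of the oral side, had log2 ratios of 0.50 (0.14 to 0.86) and 0.23 (0.05 to 0.42), and Barx1 of -0.32 (-0.43 to -0.21), or 0.13 when the cells were thinned before selection. Pitx1 was at 249 and 244 CPM in the members, whereas its log2 ratio was -0.77 in the other mesenchyme, a difference of 0.74 (0.60 to 0.88). The medians of the lower and upper bounds of the FGF genes were -0.29 and 0.33. The FGF pathway had a median ratio of 0.10, which was -0.01 without the 10 richest cells of each gene, where the median over all genes was -0.085. It held Etv4 (28.9 and 37.6 CPM) and Etv5 (22.3 and 31.3 CPM), transcriptional targets of FGF signals, above 0 and Spry2, a feedback inhibitor, past 1.5-fold lower (13.2 and 8.70 CPM; log2 ratio -0.60, -1.19 to -0.03).

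Of 12 counted genes of the frontonasal and maxillary face, 5 had a difference from the other mesenchyme with an interval above 0 and 5 below 0. The share of all genes with such an interval is not given here. This count, and the counts of differences in the lists that follow, therefore have no background and describe the listed genes only. Alx1 was at 101 and 103 CPM in the members and at 207 and 122 CPM in the other mesenchyme, with log2 ratios of 0.03 and -0.76 and a difference of 0.80 (0.61 to 0.98). Alx4 had ratios of -0.04 and -0.46 (difference 0.42, 0.19 to 0.64). Crabp1, a retinoic acid binding protein gene, was at 528 and 518 CPM in the members and at 1777 and 928 CPM in the other mesenchyme (difference 0.91, 0.83 to 0.99). Pax3, a paired-box gene of neural crest, was higher in the mutant members (31.8 and 49.6 CPM; log2 ratio 0.64, 0.36 to 0.92) and lower in the other mesenchyme (61.9 and 41.0 CPM), a difference of 1.23 (0.94 to 1.53). Nr2f2, a relative of Nr2f1, was at 163 and 97.1 CPM in the members (log2 ratio -0.75). Aldh1a2, which makes retinoic acid, was at 11.6 and 4.70 CPM in the members (80 and 20 UMIs; log2 ratio -1.30, -2.08 to -0.58) and slightly higher in the mutant elsewhere (0.21).

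The genes that the study followed as reduced or raised in its mutants came in part from these samples. Others came from its bulk RNA-seq of frontonasal and maxillary tissue at an earlier stage, not of the mandible. As a set they are therefore not independent evidence of direction, nor of a difference between members and other mesenchyme. The other mesenchyme made up 3081 of 3509 control and 2330 of 2558 mutant mesenchyme cells. Genes picked on the study's whole mesenchyme are thus favoured to have ratios far from 0 there, whatever the members do. Of the 5 counted genes of the reduced set, none was past 1.5-fold lower in the members and 3 were in the other mesenchyme, and the difference between members and other mesenchyme lay above 0 for each of the 5. Of the 10 counted genes of the raised set, 1 was past 1.5-fold higher in the members (Foxf2) and 3 in the other mesenchyme, and the difference lay below 0 for 8. Foxp2 was at 60.6 and 42.5 CPM in the members (log2 ratio -0.51) against a ratio of 0.46 elsewhere. Postn, the periostin gene, had a log2 ratio of -0.51 (-0.90 to -0.12) against 0.94 elsewhere, a difference of -1.45 (-1.88 to -1.03).

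**Figure D5:**
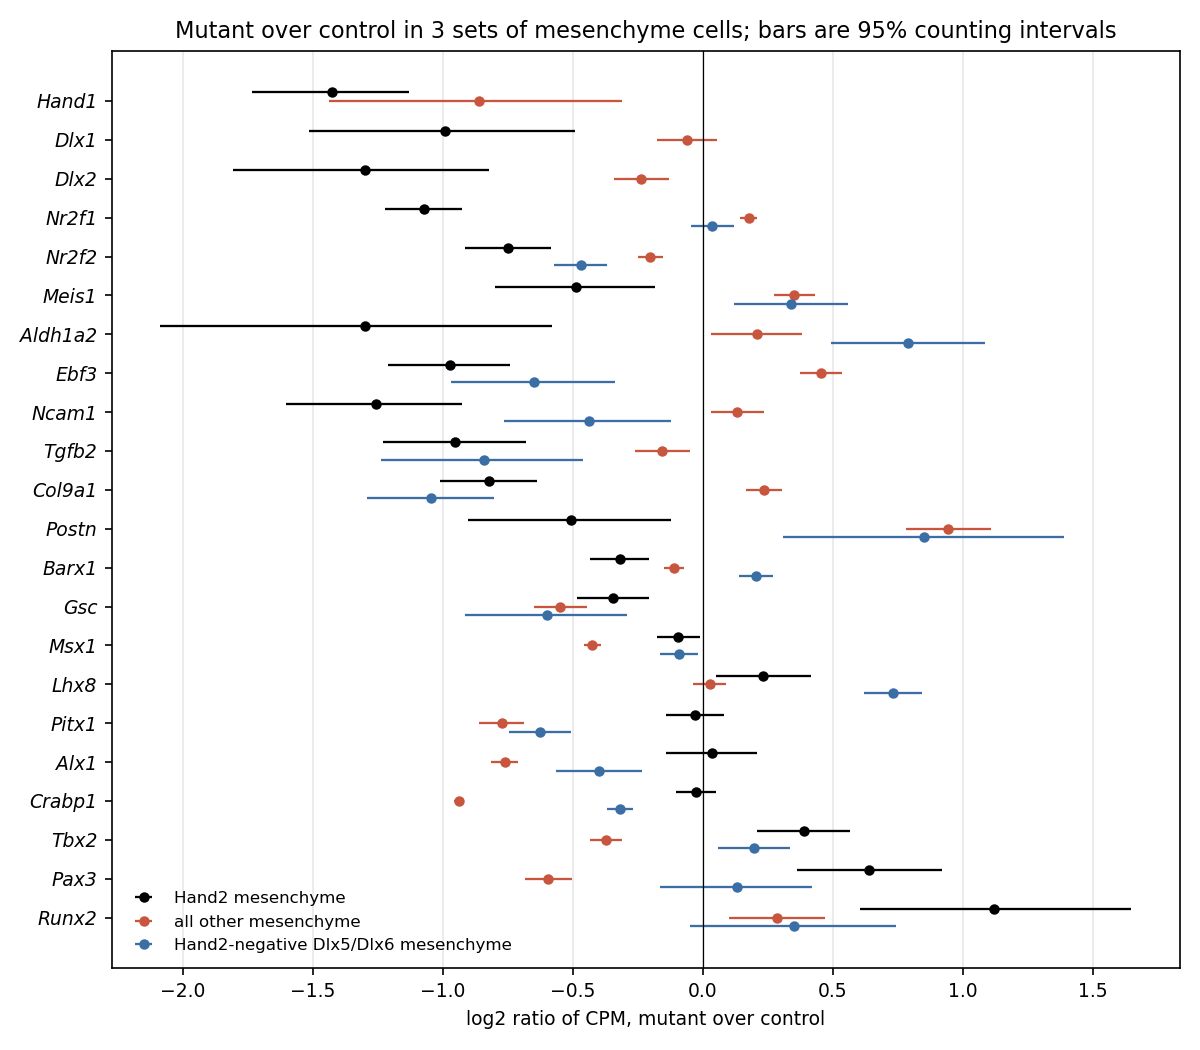
Log2 ratios of mutant over control with exact 95% intervals are drawn for 22 genes in the Hand2 mesenchyme (black), all other mesenchyme (red) and Hox-free mesenchyme with 2 or more Dlx5 and Dlx6 UMIs and no Hand2 UMI (blue). Nr2f1 is low in the Hand2 mesenchyme alone of these 3, Crabp1, Alx1 and Pitx1 are near 0 there and negative in both others, and Hand1 has no blue point because its UMIs there were 3 and 0. Dlx1 and Dlx2 have none because Dlx genes chose the blue cells.

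Mesenchyme with Dlx5 and Dlx6 but without Hand2 was used as a closer comparison within the arches. The Hand2-negative comparison cells were 563 in the control and 256 in the mutant, chosen by Dlx5 and Dlx6, so the level of Dlx genes in them is set in part by that choice and is not compared. Nr2f1 (374 and 384 CPM) was not lower in these cells, and the difference of the members from them was -1.11 (-1.28 to -0.94). For Col9a1, Tgfb2 and Ebf3 the comparison cells were also lower in the mutant, with log2 ratios of -1.04, -0.84 and -0.65, and the difference intervals held 0. Hmx1 and Vegfd were higher in them too, with ratios of 1.32 and 0.86. Lhx6 and Lhx8 were more strongly higher there (1.16 and 0.73) than in the members, by differences of -0.66 (-1.10 to -0.22) and -0.50 (-0.71 to -0.29). The Hand2 cells with Hoxa2 or Hoxb2 UMIs numbered 78 and 48. In them Hand1 had 20 and 6 UMIs (log2 ratio -1.07, -2.68 to 0.30), and Nr2f1 had a ratio of -0.32 (-0.50 to -0.13).

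A part of the listed matrix and connective tissue genes had lower ratios of mutant over control in the members than in the other mesenchyme. Of 23 counted genes of cartilage, bone and matrix, 2 were past 1.5-fold higher (Runx2 and Col6a1) and 2 lower (Col9a1 and Col5a2), around a median of 0.02 that was 0.24 in the other mesenchyme, and 12 had a difference below 0. Col9a1, a cartilage collagen gene, was at 133 and 75.5 CPM (log2 ratio -0.82, -1.01 to -0.64), and it was lower in the Hand2-negative comparison cells too. Sparc, a matrix glycoprotein gene, was at 77.5 and 55.9 CPM. Sox9, the chondrocyte factor, was at 45.6 and 44.9 CPM, and Col2a1, its target, at 86.8 and 84.9 CPM. Ebf1 and Ebf2 had log2 ratios of 0.30 and -0.20 in the members against 1.06 and 1.16 in the other mesenchyme.

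The remaining signalling lists held few genes past the fold. In the hedgehog pathway Gli1, a transcriptional target, was at 17.9 and 11.3 CPM (log2 ratio -0.67, -1.18 to -0.18), whereas Ptch1, also a target, was at 122 and 126 CPM, and 1 of 8 counted genes was past 1.5-fold. In the Wnt pathway 1 of 20 was, namely Tcf7 (8.39 and 13.9 CPM; log2 ratio 0.73, 0.18 to 1.27), and Axin2, a target gene, had a ratio of 0.30 (0.06 to 0.53). None of the 6 counted Notch genes passed 1.5-fold. The 24 genes of replication and mitosis had a median of 0.00 and a range from -0.22 to 0.26, so none reached 1.5-fold. Among p53 targets and Cdk inhibitors none of 7 passed it, but Cdkn1c, an imprinted Cdk inhibitor gene, was at 1137 CPM (1112 to 1163) in the control and 1521 CPM (1484 to 1558) in the mutant (log2 ratio 0.42). The dissociation genes Jun, Dnajb1 and Ier2 were at 63.8, 49.3 and 85.2 CPM in the control and at 49.6, 39.5 and 79.5 CPM in the mutant, and their part in the other results was not tested.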

How the data were processed

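Single-cell RNA-seq of GFP-positive cells sorted from E11.5 mouse heads was used, with 1 library per group and cells of 2 sibling embryos in each. The authors made 10x Chromium 3′ libraries and deposited raw UMI counts per gene and barcode from Cell Ranger 6.0.0 (per the file headers) on mm10, with Seurat 4.3.0 named in the submitters' notes. The strand setting of the counting and the deleted exons are not given in the sources used here.

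Barcodes with 200 to 7500 genes and at most 10% mitochondrial UMIs were kept (5625 of 6148 in the control, 5587 of 6063 in the mutant, with 83542433 and 79206144 UMIs per library before the filter), and doublets were called with Scrublet in scanpy 1.11.5 but left in. Cells were chosen by their UMIs as the report states. The 9 genes of the selection were left out of the comparison. UMIs were summed over members and divided by their total (CPM). Genes with 100 or more member UMIs in both libraries together were counted, and 1.5-fold was the limit for a call. Exact intervals (Poisson for CPM, Clopper-Pearson for shares, conditional binomial for ratios, joined for differences of ratios) have a 95% level and cover counting error only. No test was made, since there is 1 library per group and cells are not replicates; edgeR 4.0.16 and DESeq2 1.42.0 were used only for alternative scaling factors. The ratio and interval functions were tested on simulated data. Named genes were the 12 in each direction whose interval bound nearest 0 lay farthest from it, the 12 highest over other mesenchyme, and genes of the lists; 1 of these genes is not reported here. Coordinates are from GENCODE M21 for mm10, in which 32235 of 32285 gene identifiers were found, and promoter windows from RefSeq GRCm38.p6. Python 3.11.15, numpy 2.4.6, scipy 1.17.1, pandas 2.3.3, matplotlib 3.10.9 and R 4.3.3 were used. The members and gene lists were chosen with earlier results of these data known. Alternatives were another scaling, filter, selection threshold, doublet removal, cell weight and depth.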

Additional observations from a re-analysis of the deposited data

Results flagged for a closer look

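Among the counted list genes, 8 had ratios of mutant over control in opposite directions in the Hand2 mesenchyme and in the other mesenchyme, with both intervals clear of 0 and at least 1 of the ratios past 1.5-fold. The difference was not tested, since each library is 1 sample. The count by this rule over all genes is not given here. By sign alone, 13 of the 65 genes past 1.5-fold higher in the members and 51 of the 134 lower were opposite in the other mesenchyme. That is a different rule, so these counts are no background for the 8 genes. In the members, the log2 ratio was 0.64 for Pax3 and 0.73 for Tcf7, which were lower in the mutant in the other mesenchyme. It was -1.30 for Aldh1a2, -1.07 for Nr2f1, -0.82 for Col9a1, -0.62 for Col5a2, -0.51 for Postn and -0.97 for Ebf3, which were higher there. The low ratio was not particular to the members for all of these genes. Col9a1 and Ebf3 were also lower in the Hand2-negative comparison cells, and Nr2f1 in the Hand2 cells with Hoxa2 or Hoxb2 UMIs.

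Signals outside the comparison also differed between the libraries. Blood markers summed to 10.1 CPM in control members and 0.235 CPM in mutant members, mostly from Hbb-y. Xist was at 1306 CPM in control members and had no UMI in the mutant. Ddx3y (56.2 CPM), Eif2s3y (41.6 CPM), Uty (27.7 CPM) and Kdm5d (26.8 CPM), which are Y-linked, were found in mutant members. Sex and genotype cannot be told apart in these libraries.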

How the results depend on the processing

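No paired analysis was possible because there was 1 library per group. The share of members in the mesenchyme depends on the selection: in the control it was 17.4% with 1 or more Hand2 UMIs, 8.58% with 3 or more, 14.4% without the Hox criterion and 4.98% with cells thinned to 5000 UMIs, and in the mutant 11.53%, 6.29%, 10.8% and 2.94%. Genes past 1.5-fold numbered 1589 higher and 1432 lower with no filter, 18 and 24 at 300 or more UMIs, and 17 and 34 after thinning, where fewer genes reached the filter. The log2 ratio of Hand1 was -1.11 with 1 or more Hand2 UMIs, -2.24 without its 10 richest cells and -2.52 after thinning, which left 144 and 62 members, and between -1.47 and -1.38 under its other alternatives. Leaving out the 10 richest cells takes a larger part of the smaller mutant group, and the median over all genes was then -0.085 instead of -0.01. The median of the Tfap2 family was -0.78 with no filter and -0.33 without the Hox criterion, since other members of the list were then counted, and that of the dissociation genes was 0.043 with no filter. After thinning, list medians were 0.065 for the endothelin and DLX pathway, -0.28 for BMP, -0.66 for FGF, -0.45 for frontonasal and maxillary genes, 0.24 for connective tissue, -0.52 for the genes the study followed as reduced and -0.31 for those it followed as raised. Few members of a list reached the filter then: the FGF value is that of Fgfr1 alone, and the endothelin and DLX value that of Dlx5 and Gsc. Dlx5 (0.16), Barx1 (0.13) and Pdgfra (0.25) changed direction after thinning, and Lum without its 10 richest cells (-0.15). The 23 genes named by rank besides Hand1 kept their direction in all 289 values computed under the alternatives. Of these values, 12 moved past the gene's main interval. The genes were picked for intervals far from 0, and most alternatives reuse the same UMIs, so this is no independent check. Lowly expressed genes such as Tfap2a are limited by depth.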
